A study of Homo sapiens with 3 samples.

Results

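Homologous recombination and Fanconi repair genes were followed in the human lung adenocarcinoma cell line NCI-H1650 on 3 Affymetrix whole-genome expression arrays. The group held 40 genes, listed by symbol for their known roles in these pathways, with earlier results of these data known. For 36 of them the platform annotation gave at least 1 probe set of that gene alone, out of 19775 genes with such a probe set, and the other 4 were not analysed here. The cells were exposed to 40 μM colossolactone H, a triterpenoid from a Ganoderma fungus, for 12 h (1 array) or 24 h (1 array), and 1 array held control cells. No genotype change was stated for any group, and the labels gave neither a vehicle nor a collection time for the control. All of the cells were of this 1 line, grown in RPMI-1640 with serum. Whether a dish was pooled with others was not stated.

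Homologous recombination repairs a DNA double-strand break by copying the sister chromatid. Nucleases first trim the ends, BRCA1 and its partners then load a recombinase filament, and helicases and nucleases finally take the joined molecules apart. The Fanconi pathway unhooks links between the DNA strands: a core ubiquitin ligase modifies FANCI and its partner, which calls in nucleases and the recombination machinery. Both pathways work in S and G2 phase, and many of their genes are transcribed mainly in dividing cells, under E2F factors among others.

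Values are MAS5 signal, the array brightness of a probe set on a linear scale. Each gene is represented by the probe set, among those of that gene alone, with the highest mean signal. A floor of 61.4, which is the 50th percentile of the 3 arrays together, replaced lower signals. Genes with a 3-array mean above this floor are called measured. All 36 genes were measured, among 11780 in all, and 35 exceeded the floor on each array. The exception was RAD51B, whose control signal lay under the floor, so that its differences are bounds. With 1 array a group there was no replicate spread, so no difference carries an error or a p-value, and each describes these arrays only. A difference is the log2 ratio of treated to control signal, and genes were counted at 1.5-fold.

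After 24 h most of these repair genes had lower signal than in the control, by amounts under 2-fold. The widest differences were in DNA2, a nuclease-helicase that resects broken ends (1.87-fold lower), RMI2, a subunit of the complex that dissolves joined molecules (1.83-fold lower), BLM, the helicase of that complex (1.69-fold lower), BRIP1, a helicase that binds BRCA1 (1.63-fold lower), and EXO1, a resection exonuclease (1.62-fold lower). XRCC2, a recombinase paralogue, was 1.56-fold higher. In all, 31 of 36 genes (86.1%) were lower at 24 h, against 50.3% of all measured genes. Of the 36, 7 (19.4%) were 1.5-fold or more lower, against 5.01% of all measured genes, and 1 (2.78%) was 1.5-fold or more higher, against 4.24%. None reached 2-fold in either direction, where 0.662% of all measured genes were lower and 0.62% higher. The median log2 difference was -0.35, beside -0.00 over all measured genes. In RNA of whole cultures fewer cells in S or G2 phase and less of these RNAs per cell cannot be told apart.

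At 12 h the same comparison gave smaller differences for most genes. Of the 36 genes, 29 (80.6%) were lower, against 48.7% of all measured genes, with a median of -0.23 beside 0.01. Those 1.5-fold or more lower were DNA2 (1.69-fold), FANCE (1.68-fold), RMI2 (1.62-fold) and TOP3A (1.62-fold), which made 4 genes (11.1%), against 3.11% of all measured genes. Those 1.5-fold or more higher were FANCF and MUS81, both by 1.53-fold, or 5.56% against 3.51%. None reached 2-fold, where 0.45% of all measured genes were lower and 0.467% higher. Both comparisons used the same control array, so they are not independent of each other.

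**Figure D1:**
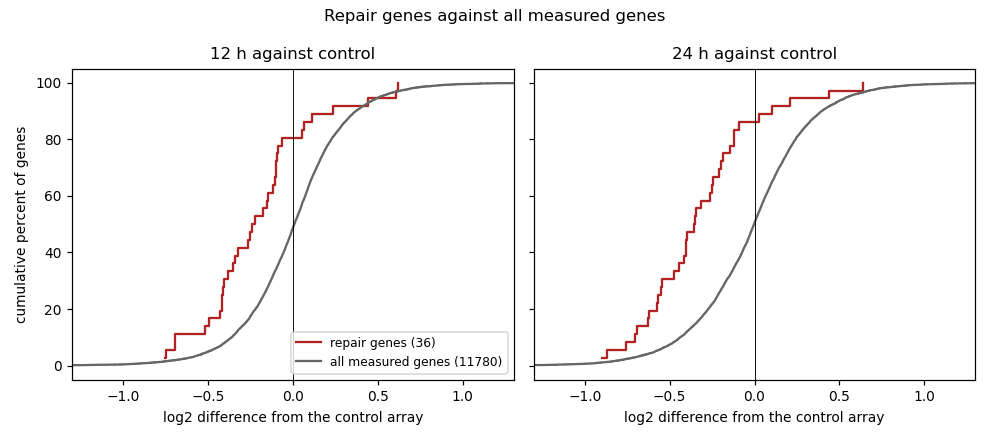
Cumulative percent of genes (y axis) against the log2 difference from the control array (x axis), at 12 h on the left and 24 h on the right, for the 36 repair genes in red and 11780 measured genes in grey. At 0 the red line stands at 80.6% at 12 h and 86.1% at 24 h, and the grey line at 48.7% and 50.3%.

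The arrays were alike in median and trimmed mean signal, and less so in the ACTB ratio. Median signals were 60.6 at 12 h, 61.8 at 24 h and 61.7 in the control, and the trimmed mean was 500.1 on each array. The signal ratio of the 3' to the 5' probe set of ACTB, read as a measure of RNA integrity, was 5.38 at 12 h and 6.55 at 24 h, against 4.95 in the control. For GAPDH it was 1.25 and 1.24, against 1.21. The ACTB ratio moved with the repair genes, and its part in their differences was not tested. Of 10 lung epithelial markers 8 were measured, with a summed signal of 69737 at 12 h, 70512 at 24 h and 72869 in the control. EPCAM and CDH1 were bright on every array, and most of the sum came from CDH1, KRT18 and EPCAM. KRT19, another epithelial keratin, was at -0.54 and -0.60. Of the lung lineage markers, SFTPC was at 0.93 and 0.64 and SFTPB at -0.36 and -0.34, both dim, while NKX2-1 and NAPSA were not above the floor on average. The part of these marker differences in the values below was not tested. None of 5 leukocyte and erythroid markers was measured, with summed signals of 200.8 and 196, against 145 in the control. Of 6 fibroblast and endothelial markers COL1A1, COL3A1 and PECAM1 were measured, and the list summed to 1517 and 1230, against 1830 in the control. PDGFRB, DCN and VWF lay under the floor on every array, and the part of this list in the differences below was not tested.

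BRCA1 and its partners formed the role group with the widest median apart from FANCI, which stood alone. All 4 measured genes were lower at both times, against 48.7% of all measured genes at 12 h and 50.3% at 24 h. The group median was -0.40 at 12 h and -0.59 at 24 h. BRCA1 (Entrez gene 672), the ubiquitin ligase that promotes resection and recombinase loading, had a signal of 1718 at 12 h and 1486 at 24 h, against 2064 in the control. BARD1 (Entrez gene 580), its obligate partner in that ligase, had 1179 and 1073, against 1571. Both treated arrays were thus under the control for the 2 subunits of the ligase, BRCA1 by 0.26 and 0.47 on the log2 scale and BARD1 by 0.41 and 0.55. PALB2 (Entrez gene 79728), the bridge from BRCA1 to the recombinase loader, had 2057 and 1773, against 2743 in the control. BRIP1 (Entrez gene 83990) had 839 and 671.2, against 1095 in the control. These 2 were 1.55-fold and 1.63-fold lower at 24 h, and BRIP1 had the lowest of its 3 signals there. A second, dimmer BRIP1 probe set had 121.5 and 114.3, against 229.6 in the control, which is -0.92 and -1.01. The 3 BARD1 probe sets all had negative differences at both times, between -0.69 and -0.41 at 12 h and between -0.57 and -0.46 at 24 h. The second BRCA1 probe set gave 0.01 at 12 h and -0.36 at 24 h.

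The FANCI gene (Entrez gene 55215), one partner of the ubiquitinated pair that marks a crosslink, had 3672 at 12 h and 3210 at 24 h, against 4945 in the control. It was 1.35-fold and 1.54-fold lower, and each of its 3 probe sets was under the control on both treated arrays, between -0.43 and -0.18 at 12 h and between -0.67 and -0.26 at 24 h.

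End resection was divided. The long-range nucleases had wide differences. In the MRE11 complex, which starts resection and senses the break, the brightest probe sets of MRE11 and RAD50 had narrow ones at 24 h. DNA2 (Entrez gene 1763) had 817.9 at 12 h and 738.9 at 24 h, against 1379 in the control, the widest difference of the 36 genes at each time (-0.75 and -0.90). EXO1 (Entrez gene 9156) had 1440 and 1273, against 2060 in the control. DNA2 and EXO1 each rest on 1 probe set. Of the MRE11 complex, the nuclease MRE11 (Entrez gene 4361) had 766.6 and 825.6, against 912.2 in the control. The ATPase RAD50 (Entrez gene 10111) had 1283 and 1240, against 1419 in the control. Their 24 h differences of -0.14 and -0.19 lay inside the middle 50% of all measured genes, -0.22 to 0.19, although a dimmer probe set gave -0.74 for MRE11, and 2 dimmer ones gave -0.75 and -0.02 for RAD50. At 12 h, where the middle 50% ran from -0.17 to 0.18, MRE11 lay outside it at -0.25 and RAD50 inside it at -0.14. The dimmer probe sets then gave -0.39 for MRE11, and -0.18 and -0.06 for RAD50. The third subunit NBN (Entrez gene 4683), which recruits ATM, had 5272 and 4421, against 5634 in the control. Its brightest probe set gave -0.35 at 24 h, while the other 3 above the floor gave 0.01, 0.15 and 0.49, so the direction of NBN was not the same for all of its probe sets.

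The genes that take joined molecules apart also went different ways. Of the 6 measured genes of this role, 4 (66.7%) were lower at 12 h and 5 (83.3%) at 24 h. Over all measured genes the shares were 48.7% and 50.3%. BLM (Entrez gene 641) had 817.8 at 12 h and 647.6 at 24 h, against 1094 in the control. RMI2 (Entrez gene 116028) had 1075 and 954.6, against 1742 in the control. TOP3A (Entrez gene 7156), the topoisomerase that works with BLM, had 202.4 and 247.4, against 327.6 in the control. RMI1 (Entrez gene 80010), the scaffold of the same complex, had 2272 and 2056, against 2436 in the control. All 4 subunits of this dissolution complex were under the control on both treated arrays, from -0.10 (RMI1) to -0.70 (RMI2) at 12 h and from -0.24 (RMI1) to -0.87 (RMI2) at 24 h. A second TOP3A probe set gave -0.13 and 0.22. MUS81 (Entrez gene 80198), a nuclease that cuts joined molecules, had 950.9 and 845.6, against 623.4 in the control. It was 1.53-fold higher at 12 h and 1.36-fold higher at 24 h, on its 1 probe set. Its partner EME1 (Entrez gene 146956) had 1550 and 1362, against 1479 in the control, which is 0.07 and -0.12, and its second probe set gave -0.33 and -0.39.

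**Figure D2:**
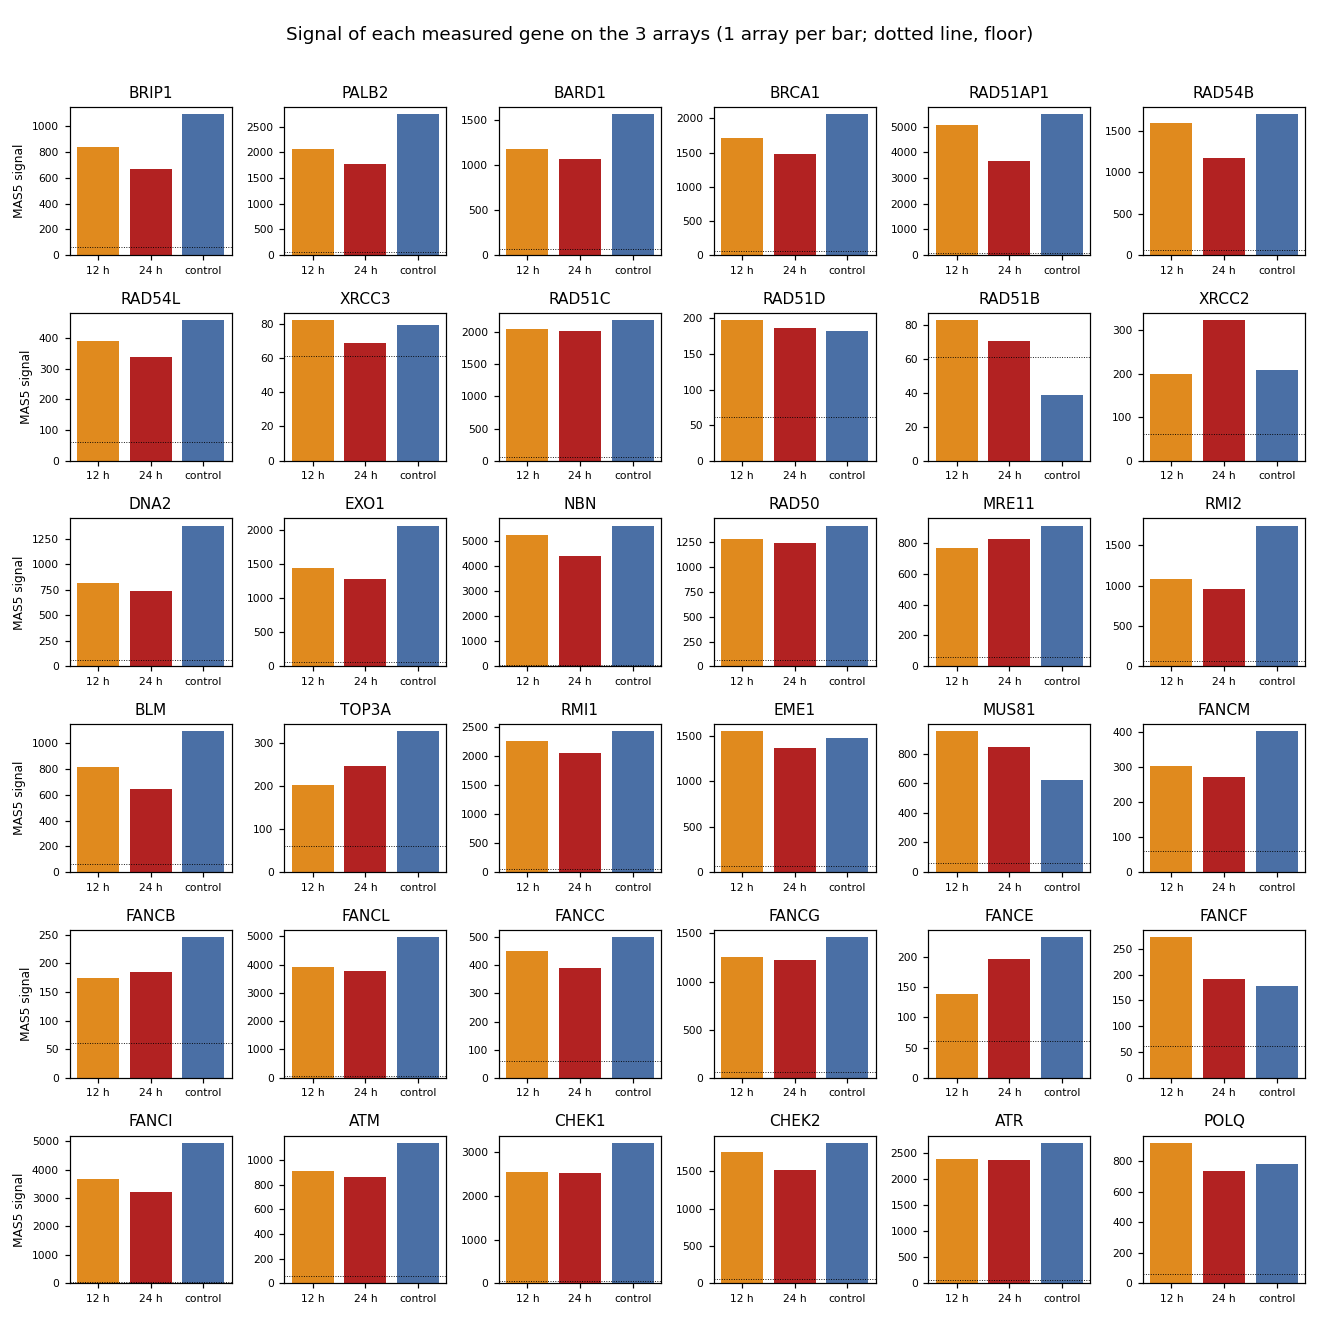
MAS5 signal (y axis, linear from 0, own scale for each panel) of the 36 measured genes on the 12 h, 24 h and control arrays, 1 array per bar, with the floor of 61.4 dotted. Panels run by role and then by the 24 h difference. The control bar is the tallest in most panels, and MUS81, RAD51B, RAD51D and FANCF are those with the control as the lowest bar.

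The recombinase paralogues and cofactors went both ways, with 5 of 8 (62.5%) lower at 12 h and 5 of 8 lower at 24 h. Over all measured genes 48.7% and 50.3% were lower, which is not far from this share. The 3 cofactors were lower at both times, and the 5 paralogues went both ways, with XRCC2 at 0.64 at 24 h. RAD51AP1 (Entrez gene 10635), which stimulates strand pairing, had 5061 at 12 h and 3679 at 24 h, against 5486 in the control. RAD54B (Entrez gene 25788), a translocase that remodels the paired strands, had 1600 and 1167, against 1703 in the control. RAD54L (Entrez gene 8438), the related main translocase, had 388.7 and 336.8, against 459 in the control. For RAD51AP1 and RAD54B the 12 h array stood near the control (-0.12 and -0.09) and the 24 h array well under it (-0.58 and -0.54). RAD54L was at -0.24 and -0.45. A pair of probe sets that RAD54B shares with the gene FSBP in the annotation entered no gene value. The brighter of them had 368.5 at 12 h and 233 at 24 h, against 398.3 in the control, and the dimmer had 140.6 and 102.4, against 106.6.

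Among the paralogues, which assist filament assembly, RAD51C (Entrez gene 5889) had 2041 at 12 h and 2017 at 24 h, against 2190 in the control (-0.10 and -0.12). RAD51D (Entrez gene 5892) had 198.1 and 186.1, against 183 in the control. Its second probe set, near the floor, gave -0.50 and -0.62 where the brightest gave 0.11 and 0.02. XRCC2 (Entrez gene 7516) had 198.1 and 323.5, against 207.4 in the control. The 24 h array was thus the 1 high value of XRCC2, from a single probe set whose name marks probes that may match other sequences. XRCC3 (Entrez gene 7517) had 82.3 and 68.6, against 79.3 in the control. RAD51B (Entrez gene 5890) had 83.3 and 70.9, against 38.6 in the control, which set against the floor is at least 1.36-fold and at least 1.15-fold higher. XRCC3 and RAD51B lie so near the floor that their directions carry little weight.

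The median of the Fanconi core complex was -0.35 at 12 h and -0.36 at 24 h. Of its 7 measured genes 6 (85.7%) were lower at each time, against 48.7% and 50.3% of all measured genes. FANCL (Entrez gene 55120), its ubiquitin ligase subunit, had 3904 at 12 h and 3788 at 24 h, against 4984 in the control (-0.35 and -0.40). FANCM (Entrez gene 57697), the translocase that anchors the core to DNA, had 302.8 and 270.4, against 401.8 in the control (-0.41 and -0.57). FANCG (Entrez gene 2189), a scaffold subunit, had 1256 and 1224, against 1465 in the control (-0.22 and -0.26). In these 3 genes the 2 treated arrays lay close together and under the control. The 4 probe sets of FANCM above the floor gave between -0.45 and 0.00 at 12 h and between -0.57 and 1.19 at 24 h, the last from a probe set with a control signal of 70.

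FANCC (Entrez gene 2176), a subunit of the module that joins FANCE to the ligase, had 451.2 and 391.2, against 501.3 in the control (-0.15 and -0.36). FANCB (Entrez gene 2187), a partner of FANCL, had 174.7 and 184.9, against 246.5 in the control (-0.50 and -0.41). The 2 other FANCB probe sets above the floor gave -0.59 and -0.02 at 12 h and -0.04 and -0.05 at 24 h. FANCE (Entrez gene 2178), the subunit that contacts the substrate pair, had 138.9 and 196.1, against 232.9 in the control. The FANCE difference was -0.75 at 12 h and -0.25 at 24 h, from a single dim probe set. FANCF (Entrez gene 2188), an adaptor of the core, was the 1 gene of the complex with the control as its lowest signal: 272.9 at 12 h and 191.3 at 24 h, against 177.8. A second FANCF probe set had 138 and 243.5, against 138.7, which puts the higher value at the other time, and the 2 probe sets average to 0.31 at 12 h and 0.46 at 24 h.

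The checkpoint kinases, which sense breaks and stalled forks and hold the cell cycle, were all lower by small amounts. Of all measured genes, 48.7% were lower at 12 h and 50.3% at 24 h. ATM (Entrez gene 472), the kinase called to double-strand breaks, had 908.2 at 12 h and 860.4 at 24 h, against 1139 in the control (-0.33 and -0.40). ATR (Entrez gene 545), the kinase of single-stranded DNA, had 2393 and 2376, against 2703 in the control (-0.18 and -0.19). CHEK1 (Entrez gene 1111), the kinase downstream of ATR, had 2528 and 2520, against 3205 in the control (-0.34 and -0.35). The 2 treated arrays were almost level for ATR and CHEK1. CHEK2 (Entrez gene 11200), the kinase downstream of ATM, had 1754 and 1514, against 1885 in the control (-0.10 and -0.32). Probe sets of ATM ranged from -0.40 to 0.58 at 24 h and those of CHEK1 from -0.43 to 0.97, the highest of each with a control signal under the floor (44.5 and 21.6). POLQ (Entrez gene 10721), the polymerase of an error-prone end-joining route that backs up recombination, had 923.1 and 737.9, against 785.5 in the control (0.23 and -0.09). Its second probe set gave -0.04 and -0.14.

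**Figure D3:**
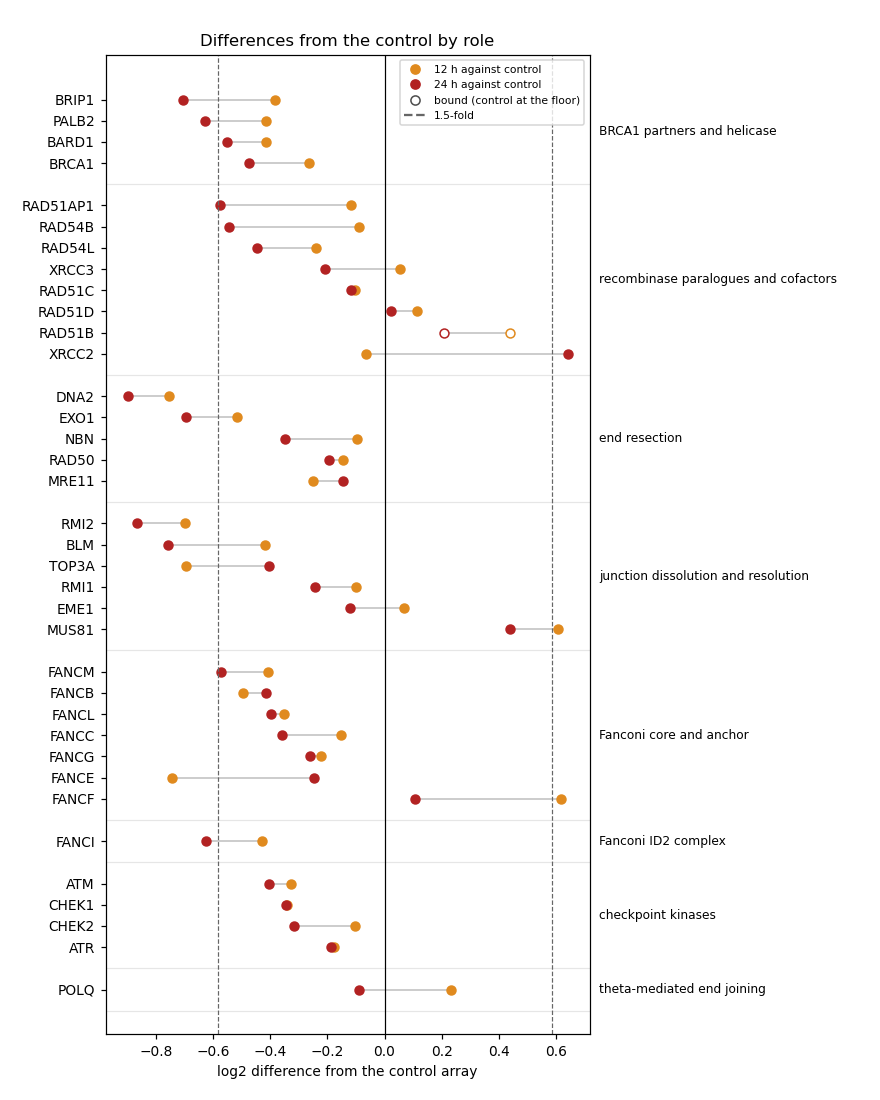
Log2 difference from the control array (x axis) of each gene at 12 h (orange) and 24 h (red), grouped by role down the page, with 1.5-fold dashed and bounds as open circles. DNA2 at -0.90 and RMI2 at -0.87 lie furthest left at 24 h, XRCC2 at 0.64 furthest right, and all 4 checkpoint kinases lie between -0.40 and -0.19 at 24 h.

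The treated arrays were also compared with each other, which leaves out the control. Here 31 of 36 genes were lower at 24 h than at 12 h, or 86.1%, against 52.8% of all measured genes, with a median of -0.17 beside -0.01. None was 1.5-fold or more lower, against 1.94% of all measured genes, and XRCC2 was 1.63-fold higher, making 2.78% against 1.48%. At 2-fold there was none either, beside 0.187% of all measured genes lower and 0.153% higher. FANCF (-0.51), RAD51AP1 (-0.46) and RAD54B (-0.45) had the widest differences downward, but a second FANCF probe set gave 0.82. With the median over probe sets FANCF was at 0.15, and 27 of 36 genes (75%) were lower. FANCE (0.50) and TOP3A (0.29) followed XRCC2 (0.71) upward. DNA2 and RMI2, far under the control at 12 h, differed by -0.15 and -0.17 between the times, and CHEK1 and ATR by -0.00 and -0.01. The genes just past the 1.5-fold line against the control at 24 h were PALB2 and FANCI (1.55-fold and 1.54-fold lower), and those just short of it were RAD51AP1 and FANCM (both 1.49-fold lower), BARD1 and RAD54B (both 1.46-fold lower).

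Agreement between probe sets of 1 gene gives some check where replicates are lacking, although probe sets share the RNA and the array. The 36 genes had 78 single-gene probe sets, of which 67 exceeded the floor on average. Of these 67, 51 (76.1%) were lower at 12 h and 53 (79.1%) at 24 h, against 49.7% and 49.6% of all 22283 single-gene probe sets above the floor, and their medians were -0.18 and -0.26. Of the 18 genes with 2 or more such probe sets, all were lower for 8 genes at 12 h and for 11 at 24 h, some were lower for 10 and 6, and for FANCF at 24 h none was. The matching share over all measured genes was not computed, so these gene counts stand without a background. BARD1, BRIP1, FANCI, RAD50, ATR and MRE11 were among those whose probe sets were lower throughout. The other 18 genes, DNA2, RMI2, BLM, EXO1 and PALB2 among them, rest on 1 probe set above the floor.

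**Figure D4:**
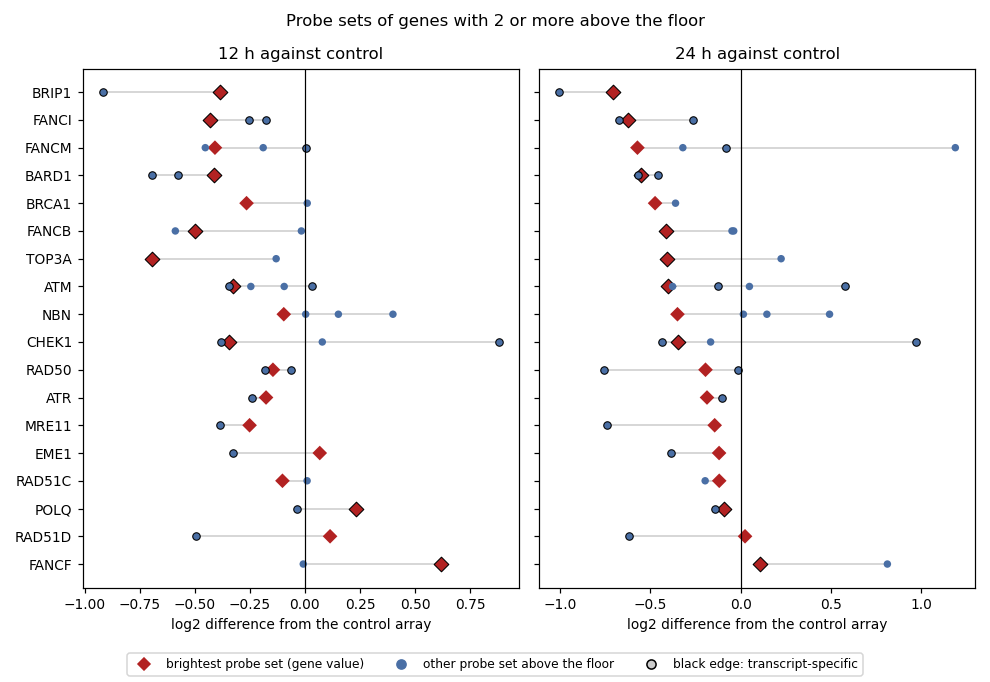
Log2 difference from the control array (x axis) of every probe set above the floor, for the 18 genes with 2 or more, at 12 h on the left and 24 h on the right. Red diamonds mark the brightest probe set, blue circles the others, and a black edge a transcript-specific one. Those of BARD1 lie close together between -0.57 and -0.46 at 24 h, and those of FANCM spread from -0.57 to 1.19.

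Promoter sequence was looked at because many of these genes were lower together and E2F sites are known in promoters of S phase genes. RefSeq promoters (GRCh38.p14, 250 bases before to 50 after the first listed start) were matched for 31 of the 36 genes. Those without one were RAD54B, DNA2, RMI2, FANCI and NBN. DNA2 and RMI2, which had the widest differences at 24 h, are thus left out of the shares and medians below. The letters searched on both strands were TTGGCGC, then TTCGCGC, then TTCCCGC, then TTGCCGC for E2F, CCAAT for the CCAAT box, and TTTGAA, then TTCGAA for the cell cycle homology region, CHR. E2F letters were found in 17 of 31 promoters (54.8%), in 21.1% of promoters of measured genes and in 12.9% of 34943 promoters in all. The repair and measured genes entered with the first listed promoter of each gene. The 34943 took in every distinct promoter, so their share is on an unlike unit. Of the repair genes, 10 had several listed starts, and the others of these were not searched. CCAAT letters were in 45.2%, against 36.9% and 34.6%, and CHR letters in 12.9%, against 11.4% and 16.4%. No E2F match in these promoters overlapped another motif. The 17 genes with E2F letters had a median difference of -0.36 at 24 h and the 14 without had -0.28, and at 12 h the medians were -0.22 and -0.21. A match is a stretch of letters and not a known site, and the share of promoters holding one does not say what acts there.

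Promoters are shown for genes 1.5-fold or more lower at 24 h for which a promoter was matched. MUS81 is shown as a gene 1.5-fold or more higher at 12 h, still higher at 24 h, with 1 probe set above the floor. They lie at chr15:90717096-90717395, plus strand (BLM); chr17:61863479-61863778, minus strand (BRIP1); chr1:241847954-241848253, plus strand (EXO1); chr16:23641261-23641560, minus strand (PALB2); and chr11:65860183-65860482, plus strand (MUS81). Capitals mark the motif letters. BLM, BRIP1 and EXO1 hold E2F letters that begin within 25 bases after the start, BLM at 4 and 23, BRIP1 at 3 and EXO1 at 6, and BLM holds a further match at -74. PALB2 and MUS81 hold CCAAT letters and no E2F letters in this window. FANCF and XRCC2, each 1.5-fold or more higher at 1 time and not shown, do hold E2F letters, at 2 and 22.
BLM: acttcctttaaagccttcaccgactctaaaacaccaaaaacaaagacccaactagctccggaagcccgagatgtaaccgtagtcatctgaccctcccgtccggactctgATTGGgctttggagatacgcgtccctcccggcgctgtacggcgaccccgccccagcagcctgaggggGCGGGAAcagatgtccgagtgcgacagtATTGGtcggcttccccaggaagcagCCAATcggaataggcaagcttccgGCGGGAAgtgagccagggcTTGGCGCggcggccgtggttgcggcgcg
BRIP1: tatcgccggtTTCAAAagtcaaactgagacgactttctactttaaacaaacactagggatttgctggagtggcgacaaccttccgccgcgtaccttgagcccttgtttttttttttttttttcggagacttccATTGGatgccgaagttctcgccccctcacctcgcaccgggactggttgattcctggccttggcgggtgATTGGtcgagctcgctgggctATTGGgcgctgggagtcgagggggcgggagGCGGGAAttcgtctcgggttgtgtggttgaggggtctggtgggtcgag
EXO1: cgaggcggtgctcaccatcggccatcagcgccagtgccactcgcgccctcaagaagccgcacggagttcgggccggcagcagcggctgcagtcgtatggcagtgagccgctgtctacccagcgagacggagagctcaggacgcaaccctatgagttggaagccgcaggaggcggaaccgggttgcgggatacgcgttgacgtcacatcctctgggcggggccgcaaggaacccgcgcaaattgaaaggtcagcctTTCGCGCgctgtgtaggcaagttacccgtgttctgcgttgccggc
PALB2: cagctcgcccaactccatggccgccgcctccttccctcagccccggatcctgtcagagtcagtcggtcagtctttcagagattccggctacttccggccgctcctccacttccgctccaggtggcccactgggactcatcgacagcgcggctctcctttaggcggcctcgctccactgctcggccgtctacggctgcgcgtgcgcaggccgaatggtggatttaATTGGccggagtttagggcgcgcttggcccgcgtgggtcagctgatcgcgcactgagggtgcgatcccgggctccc
MUS81: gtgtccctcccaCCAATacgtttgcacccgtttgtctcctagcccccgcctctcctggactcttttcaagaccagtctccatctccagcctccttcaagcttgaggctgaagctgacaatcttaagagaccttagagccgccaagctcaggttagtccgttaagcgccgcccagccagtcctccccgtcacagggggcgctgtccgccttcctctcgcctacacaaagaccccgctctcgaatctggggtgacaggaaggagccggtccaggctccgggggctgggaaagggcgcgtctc

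Other genes of recombination and crosslink repair were less shifted, in a list drawn up with earlier results of these data known. The contrast with the 36 genes is therefore a description of these lists only. Of 65 listed, 61 were measured, and 36 (59%) were lower at 12 h and 41 (67.2%) at 24 h, against 48.7% and 50.3% of all measured genes, with medians of -0.07 and -0.16. At 12 h none was 1.5-fold or more lower and 1 (1.64%) was higher, against 3.11% and 3.51%. At 24 h 4 of them (6.56%) were 1.5-fold or more lower and none higher, against 5.01% and 4.24% of all measured genes. The 4 were SMC5, a subunit of a cohesin-like repair complex (1271 at 12 h and 995.9 at 24 h, against 1702 in the control), SLF2, which recruits that complex (944.8 and 823.8, against 1246), MND1, a recombinase accessory factor of meiosis (1504 and 1189, against 1846), and CLSPN, the adaptor that lets ATR activate CHEK1 (238.9 and 192.4, against 296.7). MND1 and CLSPN were chosen after their values were seen. The SMC5 difference of -0.77 at 24 h was -0.16 when its probe sets were summarised by their median, and that of SLF2 was -0.31 in place of -0.60, so neither then passed 1.5-fold. On the higher side SWI5, a recombinase cofactor, had 2438 and 2580, against 1781 in the control. RTEL1, a helicase that unwinds displaced loops, had 156.1 and 121, against 96.4 in the control. It was the 1 gene of the list 1.5-fold or more higher at 12 h, at 0.70, and its median over probe sets turned to -0.26 at 24 h.

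Dividing-cell genes other than the 36 were mostly lower on the same arrays. Of all measured genes, 48.7% were lower at 12 h and 50.3% at 24 h. Medians for the S phase list were -0.33 at 12 h and -0.51 at 24 h, with 34 and 35 of 35 lower. The widest by the mean of both times were CCNE2, E2F8, UHRF1 and MCM2 (-1.10, -1.62, -0.91 and -0.90 at 24 h). The G2/M list had medians of -0.20 and -0.54, with 16 and 20 of 20 lower, and by the same mean the widest were KIF11, MKI67, TOP2A and KIF15 (-1.07, -0.88, -0.79 and -0.73 at 24 h). The excision, mismatch and end-joining list had medians of -0.03 at each time, with 16 and 15 of 29 lower. Among them OGG1, LIG3 and ERCC6 were at -0.85, -0.51 and -0.40 at 24 h and ERCC8 at 0.54, the OGG1 value being -0.17 as the median over its probe sets. The differences between these lists and the repair genes were not tested.

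**Figure D5:**
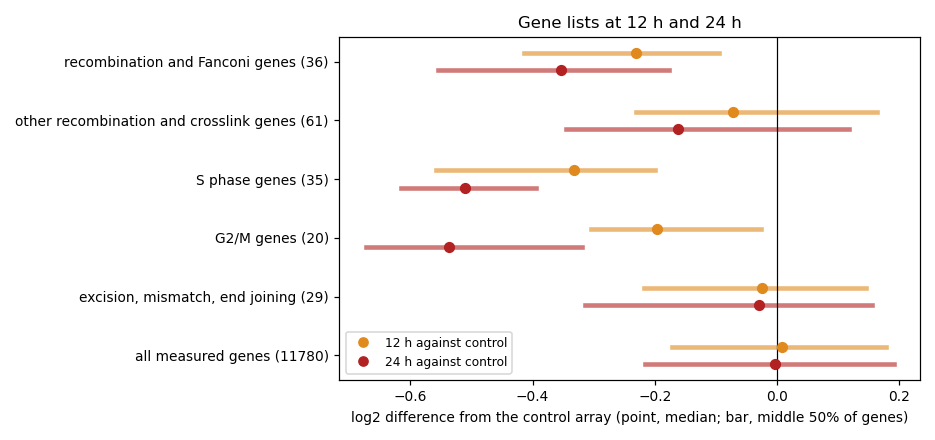
Median (point) and middle 50% (bar) of the log2 difference from the control array (x axis) for 6 gene lists, at 12 h (orange) and 24 h (red), with the number of measured genes in brackets. At 24 h the recombination and Fanconi genes lie at -0.35, between the S phase genes at -0.51 and all measured genes at -0.00.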

How the data were processed

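Total RNA of 3 samples was hybridised as biotinylated cRNA. The deposited values were linear signal intensity per probe set, produced by MAS5 according to the submitters' processing notes, and the sources used here give neither its version nor its settings. The trimmed mean after removing 2% from each end was the same on every array, and no further scaling was applied. Of 54675 probe sets, the platform annotation gave 1 gene to 41097, several to 1801 and none to 11777. Of the first, 41043 matched a current gene record by Entrez identifier. Probe sets of several genes gave no gene value.

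Signals were floored at the 50th percentile, and log2 differences were taken between pairs of arrays with Python 3.11.15, numpy 2.4.6 and pandas 2.3.3. The gene value came from the probe set with the highest mean signal. Each group had 1 array, so no test was run, and the number of arrays limits the precision. The code was tested on simulated data with planted changes. Cyclic loess used limma 3.58.1.

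Members, lists and thresholds were chosen with earlier results of these data known. Every analysed member is named, with up to 4 genes of each other list having the widest mean difference from the control. The marker lists were outside this rule, and MND1 and CLSPN were added after their values were seen. Alternatives covered scaling, floor, probe set choice, the measured rule and a 2-fold threshold.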

Additional observations from a re-analysis of the deposited data

Results flagged for a closer look

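For 4 genes above the floor on every array the difference from the control had opposite signs at the 2 times. XRCC2 was at -0.07 at 12 h and 0.64 at 24 h, a difference of 0.71 between the times. XRCC3 was at 0.05 and -0.21, a difference of -0.26, with signals close to the floor. EME1 was at 0.07 and -0.12, a difference of -0.19, and its second probe set was lower at both times (-0.33 and -0.39). POLQ was at 0.23 and -0.09, a difference of -0.32, and its second probe set was also lower at both times (-0.04 and -0.14). The opposite signs of EME1 and POLQ thus rest on 1 probe set each, while XRCC2 and XRCC3 have 1 above the floor. These differences were not tested, since each time had 1 array, and both times share the control array.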

How the results depend on the processing

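Under 9 alternatives the median of the repair genes stayed negative, between -0.35 and -0.20 at 12 h, between -0.41 and -0.26 at 24 h and between -0.20 and -0.15 for 24 h against 12 h. The 12 h median of -0.35 came with transcript-specific probe sets, which measured 28 genes. Genes 1.5-fold lower numbered 3 to 4 at 12 h and 7 to 9 at 24 h. With the median over probe sets the 4 at 12 h held BRIP1 (-0.65) in place of TOP3A (-0.41). At a 2-fold threshold all of these counts were 0. Genes 1.5-fold higher at 12 h numbered 1 with the floor at the 65th percentile, with the median over probe sets and with transcript-specific probe sets, and 3 with the floor at the 25th percentile or no floor. Those at 24 h numbered 2 with the floor at the 25th percentile or no floor, and 0 with transcript-specific probe sets, where XRCC2 has no probe set, as for 24 h against 12 h. The gene added with the lower floor or no floor was RAD51B, at up to 1.11 at 12 h and 0.88 at 24 h. The gene lost at 12 h was FANCF, or MUS81 with transcript-specific probe sets, where it has no probe set. The cause was not tested for the remaining changes. Under the alternatives that gave a gene a value, 9 for 25 of the genes and at least 7 for the rest, the direction held for 32 of 36 genes at 12 h, 33 at 24 h and 27 for 24 h against 12 h. The 65th percentile floor put FANCF at 24 h and FANCB between the times at 0. The direction turned for RAD51D and NBN at 24 h and for RAD51D, FANCM, NBN and EME1 at 12 h, each with another choice of probe set. Over all measured genes the 24 h counts at 1.5-fold, 590 lower and 499 higher, became 1946 and 1651 with the floor at the 25th percentile, 3168 and 2802 with no floor, and 350 and 289 at the 65th percentile, so the background share depends on how many dim genes enter. The 12 h counts, 366 lower and 414 higher, became 1672 and 1576, 2897 and 2681, and 172 and 206. For 24 h against 12 h, 229 lower and 174 higher became 1521 and 1396, 2750 and 2602, and 64 and 61. No paired analysis was possible because each group had 1 array. Leaving out an array was not possible for the same reason. Signals near the floor, as for XRCC3 and RAD51B, limit those genes.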
